A study of Mus musculus with 6 samples.

Results

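The genes described here are 45 genes of protein folding, endoplasmic reticulum (ER) stress and heat shock, taken by symbol from a table of 16836 genes, in which all 45 were found once each. They were chosen by function and fell into 6 groups: 15 ER folding genes, 6 genes of ER-associated degradation, 4 genes of stress sensing (Xbp1, Ern1, Atf6 and Eif2ak3), 6 genes of the integrated stress response, 12 genes of the cytosolic heat shock system and 2 mitochondrial chaperonin genes. RNA was sequenced from mouse bone marrow-derived macrophages, which are matured in culture from marrow precursors. Ube3a knockout mice (labelled UBE3A KO, and Ube3a-/- in the protocol; KO below) and wild-type littermates (WT) gave 3 libraries each. Age, sex, the knockout allele and any stimulation of the cells are not given in the labels, and they do not say whether the libraries stem from different animals; the p-values below therefore reflect only the scatter among these samples, some of which may be technical. Ube3a encodes an E3 ubiquitin ligase. The comparison is KO against WT, with the levels in single libraries beside it.

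Secreted and membrane proteins fold in the ER with the help of chaperones such as BiP (Hspa5) and of disulfide isomerases. When unfolded proteins build up, the sensors IRE1 (Ern1), ATF6 and PERK (Eif2ak3) start the unfolded protein response: IRE1 splices Xbp1 mRNA, ATF6 is cut to release a transcription factor, and PERK phosphorylates the translation factor eIF2 alpha, which favours translation of ATF4. The eIF2 alpha arm is shared with other stresses and is then called the integrated stress response, with CHOP (Ddit3) among its late targets. In the cytosol, HSF1 drives heat shock genes such as Hspa1a and Hspa1b. Macrophages carry a large secretory and lysosomal load and express ER chaperones at all times. Reads counted per gene do not show Xbp1 splicing, ATF6 cleavage or phosphorylation.

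Several promoters of the ER folding genes hold the ER stress element. The element is named for the response by which the genes were chosen, so the counts below are a description and not an independent result. RefSeq promoter windows (GRCm38.p6) were matched by symbol for 37 of the 45 genes, and the 250 bases before each start were searched on both strands. For 29 of these 37 genes the bases after the start were found in a GENCODE transcript on the gene's strand. Atf6, Hsf1, Hsp90aa1, Hspa8, Hyou1, Derl1, Manf and Hsp90ab1 had no entry. The ER stress element, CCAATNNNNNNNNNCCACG, was found in 7 of the 13 ER folding genes with a window and in Syvn1, which makes 8 of 37 genes or 21.6%, against 0.13% of all 27025 genes with a promoter. The shorter ER stress element II, ATTGGNCCACG, which holds CCAAT read on the other strand, was found in Herpud1 alone among the 37, against 0.037% of all genes. Of the stretches below, that of Hspa5 overlaps an annotated untranslated region and so is not purely upstream. The stretches are shown because the matched element recurs among the ER folding genes. They run 5′ to 3′ on the gene's strand, with the match in capitals; a match on the other strand starts with CGTGG and ends with ATTGG.
Hspa5, chr2:34772020-34772048, plus strand: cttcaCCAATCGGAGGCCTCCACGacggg
Hsp90b1, chr10:86705623-86705671, minus strand: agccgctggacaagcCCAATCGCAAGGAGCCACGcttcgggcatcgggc
Hsp90b1, chr10:86705518-86705566, minus strand: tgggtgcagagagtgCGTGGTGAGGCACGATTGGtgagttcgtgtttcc
Calr, chr8:84847060-84847108, minus strand: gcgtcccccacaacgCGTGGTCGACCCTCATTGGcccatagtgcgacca
Canx, chr11:50325785-50325833, minus strand: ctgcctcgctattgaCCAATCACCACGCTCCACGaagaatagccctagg
Pdia6, chr12:17266476-17266524, plus strand: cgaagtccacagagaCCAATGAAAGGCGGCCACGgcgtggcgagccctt
Dnajc3, chr14:118937812-118937860, plus strand: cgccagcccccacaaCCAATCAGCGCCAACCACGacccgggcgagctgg
Creld2, chr15:88819505-88819553, plus strand: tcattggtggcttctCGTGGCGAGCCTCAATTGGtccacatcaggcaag
Syvn1, chr19:6046517-6046565, plus strand: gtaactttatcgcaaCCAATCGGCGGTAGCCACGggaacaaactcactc
Herpud1, chr8:94386362-94386402, plus strand: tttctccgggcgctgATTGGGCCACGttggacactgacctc

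A heat shock element of 3 units, GAANNTTCNNGAA, was found in Hspd1 and Hspe1 and in none of the other 35 windows, against 0.514% of all genes. Both genes read from the same stretch, because they lie head to head on chromosome 1 and share 112 exon bases on opposite strands. Their matches on the 2 strands overlap, and the stretch, which overlaps an annotated untranslated region, is shown here once, as Hspe1 reads it.
Hspe1, chr1:55088059-55088081, plus strand: ttctaGAACCTTCCGGAAggccc
A narrow form of the CARE motif of ATF4 targets, TGATGNAAT, was found in none of the 37 windows and in 0.91% of all genes. Forms with a last base other than T were not searched, so this does not show that the windows lack the motif. A match is a description of letters in this window, not a measured binding site.

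Libraries held 25454862 to 35517269 reads, and 1 read was worth 0.0277 to 0.0400 CPM (reads scaled to the size of the library). The genotype check was as labelled: Ube3a, on chromosome 7, stood at 69.7, 61.2 and 77.0 CPM in KO replicates 1 to 3 and at 207.1, 193.7 and 177.6 CPM in WT replicates 1 to 3, so that KO kept 35.9% of the WT mean (log2 fold change −1.47; limma adjusted p = 0.00444). All 12 macrophage markers looked for were present, among them Csf1r, the CSF-1 receptor, at 1424 to 1584 CPM in the 6 libraries. Their summed level, mostly Lyz2 (8859 to 11216 CPM), was 15305 to 18054 CPM in KO and 16077 to 17214 CPM in WT. Other markers varied more, with Mrc1 at 277.0 CPM in WT replicate 1 and 897.1 CPM in KO replicate 2. WT replicate 1 was the lowest WT library for 7 of the 12 markers, against 35.5% of all genes. WT replicate 2 was the highest WT library for 9 of 12, against 38.9%. Xist, which is transcribed from the inactive X chromosome of female cells, was at 0.900 CPM in KO replicate 2 and 0.495 CPM in WT replicate 2, and at 1087 CPM or more in the other 4 libraries. By Xist, each genotype thus appears to mix sexes and to hold libraries of more than 1 animal. How the other 4 libraries are related is not known. limma was run on log2(CPM + 1), a scale that understates changes of low genes, over the 12118 genes at 1 CPM or more in 3 or more libraries. All 45 genes passed this filter, with 22 to 48694 reads per gene and library.

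Per length, Hsp90ab1 and 6 of the ER folding genes were the most abundant of the 45, and the stress-inducible HSP70 genes the least. The ER folding genes ran from 431.6 mean RPKM (Calr) down to 12.4 mean RPKM (Dnajb9). Levels per length are CPM per kilobase of merged GENCODE M21 exons (RPKM). Hsp90ab1, the constitutive cytosolic HSP90, had a mean of 441.1 RPKM (427.0 to 463.3 over the 6 libraries) and Calr, the lectin chaperone calreticulin, 431.6 RPKM (407.1 to 479.3), so these neighbours overlapped. Hspa5 followed at 312.1, Hsp90b1 (the ER HSP90, GRP94) at 294.7, P4hb (protein disulfide isomerase) at 293.9, Pdia3 (the isomerase that works with calreticulin) at 267.2 and Canx (calnexin) at 200.3 mean RPKM. Hspa5, Hsp90b1, P4hb and Pdia3 each overlapped in range with the next of these 4, whereas Hspa5 lay below Calr, and Canx below Pdia3, in every library. Hspa8, the constitutive HSP70, stood at 120.9 and Atf4 at 108.8 mean RPKM. At the low end, Hsf1, the heat shock transcription factor, had 3.58, Hspa1b 0.669 and Hspa1a 0.459 mean RPKM. Hspa1a and Hspa1b overlapped in range, at 0.262 to 0.720 and 0.504 to 0.845 RPKM. Together the 45 genes took 1.19% to 1.43% of the reads of a library, of which the ER folding genes took 0.700% to 0.886% of the reads.

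None of the 45 genes passed the test between KO and WT. In limma with Benjamini-Hochberg adjustment over the 12118 genes, 0 of 45 passed an adjusted p of 0.05, where 0.0165% of all genes did (0.00825% higher and 0.00825% lower in KO), and the smallest adjusted p among the 45 was 0.866. At an unadjusted p under 0.05 the count was also 0 of 45, against 4.13% of all genes, and limma-voom gave 0 of 45 against 4.2%. Without both replicate 2 libraries, which differ from the others in Xist, 2 of 45 (Ddit3 and Trib3) had an unadjusted p under 0.05, against 11.3% of all genes, and 0 of 45 passed after adjustment. The lowest unadjusted p was 0.138, for Derl2. Of the 45 log2 fold changes (KO minus WT), 19 were positive and 26 negative, with a median of −0.01 against 0.00 for all genes, and they ran from −0.15 (Hsph1) to 0.23 (Ddit3). For 38 of 45 genes the difference was smaller than the pooled SD of the libraries within a genotype, which held for 68.3% of all genes. For 42 of 45 genes the whole 95% interval, on log2(CPM + 1), was inside 1.5-fold in either direction, against 90.4% of all genes. The other 3 were Ddit3, Trib3 and Hspa1a, so a change of 1.5-fold in these genes was not bounded by 3 libraries per genotype. The added 1 CPM narrows the intervals of low genes. For Hspa1b, at 1.41 to 2.37 CPM, the interval therefore does not bound a 1.5-fold change in CPM either. Leaving out KO replicate 1 and WT replicate 2, which stood apart in several of these groups, also gave 0 of 45.

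**Figure D1:**
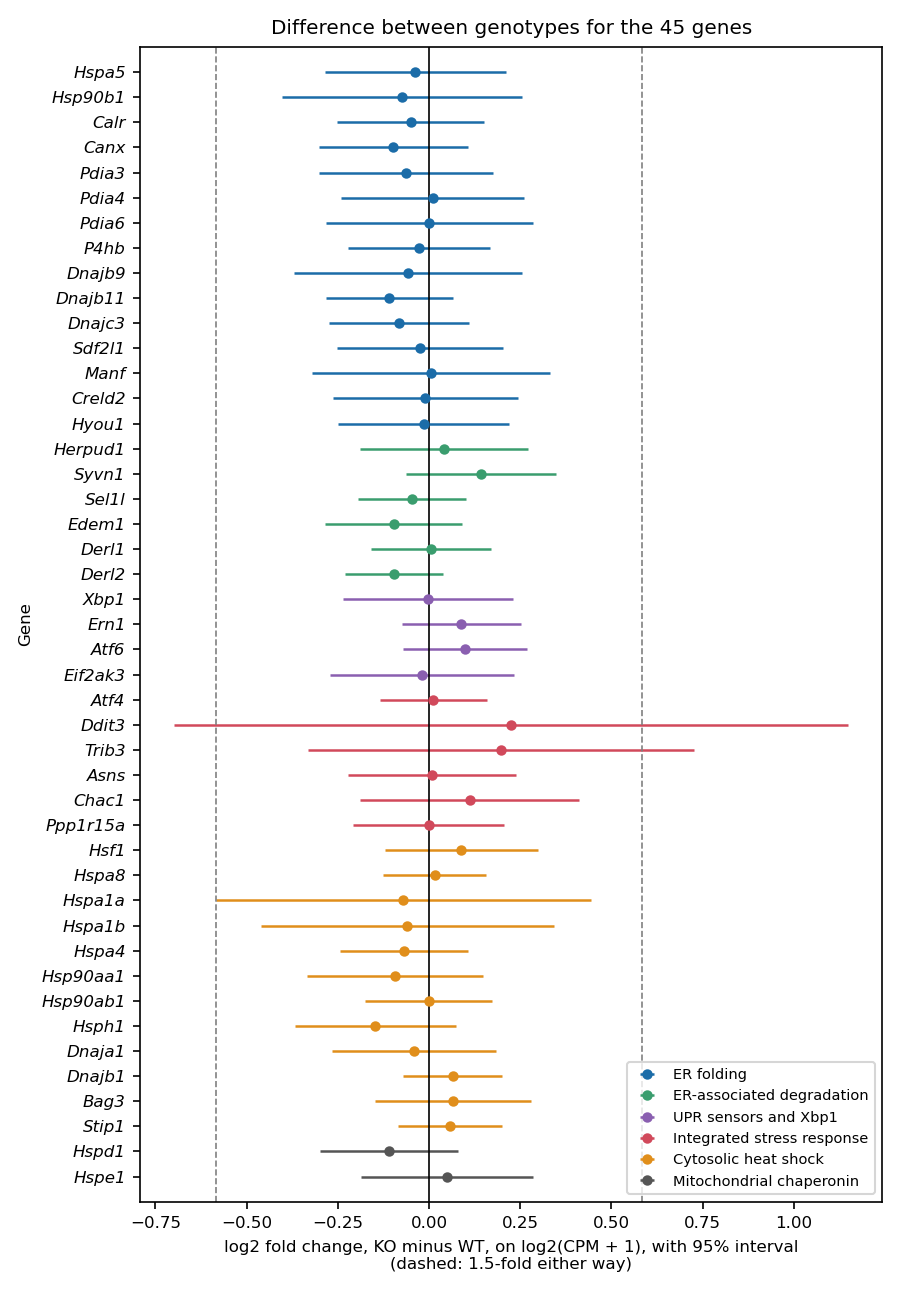
Log2 fold change (KO minus WT, on log2(CPM + 1)) of each of the 45 genes, with its 95% interval from limma, coloured by gene group; n = 3 libraries per genotype. Every interval crosses 0, and those of Ddit3, Trib3 and Hspa1a reach past the dashed lines at 1.5-fold.

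The ER folding genes had differences between genotypes below the pooled SD of libraries within a genotype in 14 of 15 cases. All 15 were tested, 0 passed in either direction, 3 had positive and 12 negative log2 fold changes, and the median was −0.04. Hspa5 (ENSMUSG00000026864, chromosome 2: 34771970 to 34777547, plus strand, GRCm38), the BiP chaperone and a regulator of all 3 sensors, stood at 1179, 1314 and 1414 CPM in KO replicates 1 to 3 and at 1466, 1196 and 1350.2 CPM in WT replicates 1 to 3. KO replicate 1 and WT replicate 2 were the low libraries of their genotypes, and the genotypes overlapped. Its means were 1302 ± 118.1 CPM in KO and 1338 ± 135.6 CPM in WT (SD, n = 3 each), a log2 fold change of −0.04 (95% interval −0.29 to 0.21; limma adjusted p = 0.945). Hsp90b1 stood at 1037, 1136 and 1288 CPM in KO and at 1433, 998.8 and 1236 CPM in WT, with the same low libraries (log2 fold change −0.07, 95% interval −0.40 to 0.26; limma adjusted p = 0.923).

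Among the other ER folding genes the same order of libraries was common. Manf, a secreted ER stress protein, stood at 118.1, 139.1 and 147.3 CPM in KO and at 149.0, 106.9 and 149.8 CPM in WT. KO replicate 1 and WT replicate 2 were again low (log2 fold change 0.01, 95% interval −0.32 to 0.33). Pdia6, an isomerase that binds the sensors, stood at 294.1, 365.6 and 367.8 CPM in KO and at 371.9, 290.8 and 365.2 CPM in WT. The smallest p of the group belonged to Dnajb11, a co-chaperone of BiP, at 166.8, 165.7 and 175.7 CPM in KO and 200.6, 168.2 and 180.7 CPM in WT. The genotypes overlapped for Dnajb11 (log2 fold change −0.11 ± 0.08, SE; limma adjusted p = 0.866), and a two-sided exact permutation test of its 3 against 3 values gave p = 0.2, where 0.1 is the smallest value possible. Canx had the next smallest p, at 901.2, 858.9 and 963.3 CPM in KO and 1055, 893.1 and 969.2 CPM in WT (−0.10 in log2 fold change, limma adjusted p = 0.877). Dnajb9 (ERdj4), a co-chaperone that acts on IRE1, had another order, at 34.3, 24.6 and 34.3 CPM in KO and 31.6, 35.3 and 29.5 CPM in WT, with WT replicate 2 its highest library. The other genes (Calr, Pdia3, Pdia4, P4hb, Dnajc3, Sdf2l1, Creld2 and Hyou1) lay between −0.08 and 0.01 in log2 fold change.

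Genes of ER-associated degradation, which retrotranslocates misfolded proteins for the proteasome, had the narrowest range between libraries in their mean level. Gene by gene they did not: the highest library was up to 1.33 times the lowest (Syvn1), against up to 1.25 times in the sensor group. All 6 were tested, 0 passed in either direction, 3 were positive and 3 negative, and the median log2 fold change was −0.02. Derl2, a channel component, stood at 75.2, 70.7 and 75.5 CPM in KO and at 79.8, 79.7 and 77.3 CPM in WT. It was the only one of the 45 genes in which all KO libraries lay on one side of all WT libraries, here below. Of all genes, 9.95% had no overlap, 4.41% with KO above and 5.55% with KO below. The log2 fold change of Derl2 was −0.10 ± 0.06 (SE; limma adjusted p = 0.866). Syvn1, the ubiquitin ligase HRD1 of this pathway, stood at 53.7, 64.9 and 54.8 CPM in KO and at 48.9, 52.3 and 55.3 CPM in WT. KO replicate 2 was its high library, and the genotypes overlapped (log2 fold change 0.14, 95% interval −0.06 to 0.35; limma adjusted p = 0.866). Herpud1, which gathers the ligase complex, stood at 45.3, 59.05 and 51.1 CPM in KO and at 48.3, 48.8 and 53.2 CPM in WT (0.04 in log2 fold change, limma adjusted p = 0.937). Sel1l (the ligase's partner), Edem1 (a mannose-trimming lectin) and Derl1 had log2 fold changes of −0.05, −0.10 and 0.0048.

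Of Xbp1 and the 3 sensors, 0 of 4 passed the threshold, 2 were positive and 2 negative. Xbp1, the transcription factor activated by IRE1, stood at 143.5, 169.9 and 163.9 CPM in KO and at 170.9, 139.0 and 169.2 CPM in WT, again lowest in KO replicate 1 and WT replicate 2 within each genotype. Its log2 fold change was −0.0027 (95% interval −0.23 to 0.23; limma adjusted p = 0.995). Eif2ak3 (PERK) followed the same libraries, at 42.0, 50.3 and 51.1 CPM in KO and 52.5, 42.1 and 50.9 CPM in WT (log2 fold change −0.02, 95% interval −0.27 to 0.23). Ern1 (IRE1) stood at 82.5, 75.1 and 85.9 CPM in KO and at 77.4, 72.7 and 78.4 CPM in WT. Atf6 stood at 206.8, 202.0 and 231.4 CPM in KO and at 208.2, 188.4 and 200.2 CPM in WT. For these sensors KO replicate 3 was the high library and the genotypes overlapped, with log2 fold changes of 0.09 (Ern1) and 0.10 (Atf6) and a limma adjusted p of 0.866 for each.

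In the integrated stress response the mean level of the group had the widest range between libraries, and it was not split by genotype. This width rests on Ddit3 and Trib3. The other 4 genes, taken apart after the values were seen, had mean levels (defined below) of −0.07 (KO replicate 2) to 0.16 (KO replicate 1). ER folding ran from −0.14 (WT replicate 2) to 0.14 (WT replicate 1). All 6 genes were tested, 0 passed in either direction, 5 were positive and 1 negative, and the median log2 fold change was 0.06. Ddit3 (ENSMUSG00000025408, chromosome 10: 127290774 to 127296288, plus strand, GRCm38), which encodes the transcription factor CHOP, stood at 28.6, 12.1 and 12.8 CPM in KO and at 10.5, 25.3 and 10.1 CPM in WT. KO replicate 1 and WT replicate 2 were the high libraries and the other 4 lay between 10.1 and 12.8 CPM, with the highest library at 2.83 times the lowest. The means were 17.8 ± 9.28 CPM in KO and 15.3 ± 8.65 CPM in WT (SD, n = 3 each), and the log2 fold change was 0.23 (95% interval −0.70 to 1.15; limma adjusted p = 0.918). Trib3, a pseudokinase induced by CHOP, had the same high libraries, at 26.3, 16.8 and 17.9 CPM in KO and 13.1, 23.98 and 16.3 CPM in WT (log2 fold change 0.20, 95% interval −0.33 to 0.73; limma adjusted p = 0.892). The estimates for both genes rest on which libraries enter. Without KO replicate 1 and WT replicate 2 the log2 fold changes were 0.25 (Ddit3) and 0.23 (Trib3), with a limma adjusted p of 0.589 and 0.613. Without both replicate 2 libraries they were 0.84 and 0.54, at an adjusted p of 0.279 and 0.253, and without KO replicate 1 they were −0.15 and 0.01. Ddit3 and Mars overlap by 68 exon bases on opposite strands; whether counting used strand is unknown, so reads there may belong to either gene. The same holds, among others, for the exon bases that Derl2 shares with Mis12 (231), Syvn1 with Mrpl49 (91) and Eif2ak3 with Gm43292 (485). It also holds for Manf with Dcaf1 (146) and 4930524O07Rik (166), and Dnaja1 with Smu1 (608) and Gm6297 (249). Further cases are Hsp90b1 with 1810014B01Rik (415) and Hspa1a with Gm20481 (564). GENCODE M21 also holds a second gene named Ddit3, which shares 105 exon bases with Ddit3 on the same strand, where strand does not tell reads apart.

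The transcript of Atf4 itself had a small difference. It stood at 274.8, 254.2 and 244.0 CPM in KO and at 255.6, 254.7 and 255.6 CPM in WT, with the WT libraries almost equal (log2 fold change 0.01, 95% interval −0.14 to 0.16; limma adjusted p = 0.971). Asns, asparagine synthetase, stood at 182.3, 138.2 and 161.6 CPM in KO and at 151.1, 161.3 and 163.8 CPM in WT. Chac1, a glutathione-degrading enzyme, stood at 7.28, 6.04 and 5.15 CPM in KO and at 6.05, 5.55 and 5.16 CPM in WT (0.11 in log2 fold change, limma adjusted p = 0.892). Ppp1r15a (GADD34), which reverses eIF2 alpha phosphorylation, stood at 10.1 to 11.8 CPM in all 6 libraries. KO replicate 1 was the highest KO library for all 6 genes of the group, while WT replicate 2 was the highest WT library for Ddit3, Trib3 and Ppp1r15a. Ppp1r15a and Bag3 are the members on the chromosome of Ube3a, 13.7 Mb and 69.2 Mb away from it.

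**Figure D2:**
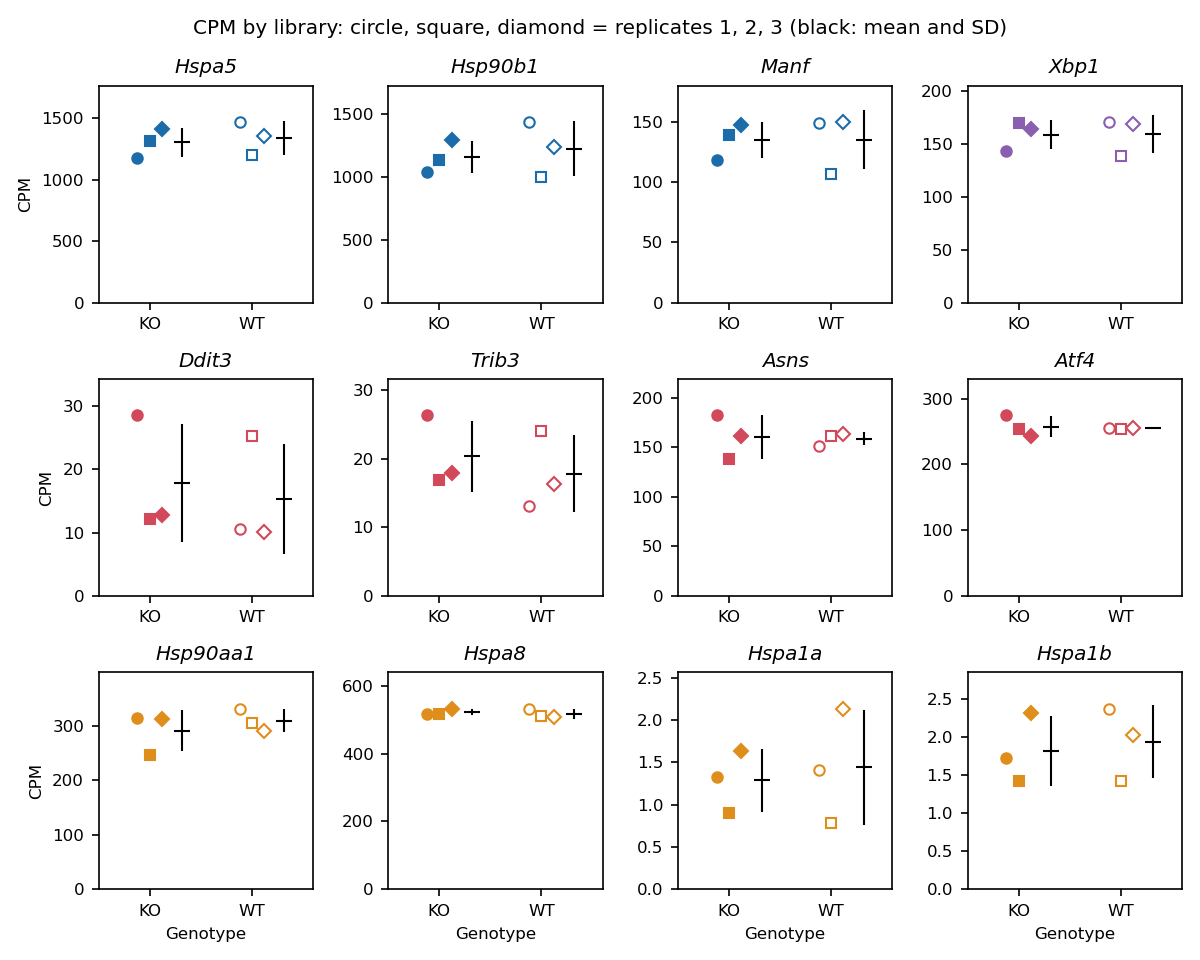
CPM of 12 of the genes in each library, with axes from 0; filled symbols are KO, open symbols WT, and the black bar is the mean with its SD (n = 3). Ddit3 and Trib3 are highest in KO replicate 1 and WT replicate 2, where Hspa5, Hsp90b1, Manf and Xbp1 are lowest within each genotype.

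In the cytosolic heat shock group no gene passed in either direction. All 12 were tested, 5 were positive and 7 negative, and the median log2 fold change was −0.02. Hspa8 stood at 517.5, 517.7 and 533.0 CPM in KO and at 533.4, 511.1 and 507.4 CPM in WT, a highest-to-lowest ratio of 1.05, the smallest of the 45 genes. Its log2 fold change was 0.02 (95% interval −0.13 to 0.16; limma adjusted p = 0.959). Hsp90aa1, the inducible cytosolic HSP90, stood at 313.2, 246.8 and 312.1 CPM in KO and at 331.4, 305.7 and 289.5 CPM in WT, with KO replicate 2 its low library (log2 fold change −0.09, 95% interval −0.34 to 0.15). Hsph1, an HSP110 exchange factor, had the smallest p of the group, at 83.3, 73.7 and 90.2 CPM in KO and 99.4, 82.9 and 91.5 CPM in WT (log2 fold change −0.15 ± 0.10, SE; limma adjusted p = 0.866). Dnajb1 (HSP40) stood at 55.9, 57.8 and 58.3 CPM in KO and at 55.1, 53.0 and 56.2 CPM in WT (0.07 in log2 fold change, limma adjusted p = 0.877). Hsf1 stood at 27.8, 27.3 and 23.6 CPM in KO and at 22.6, 25.6 and 25.5 CPM in WT (0.09 in log2 fold change, limma adjusted p = 0.883). The other genes, Hsp90ab1, Hspa4, Dnaja1, Bag3 and Stip1, which encode chaperones and co-chaperones, lay between −0.07 and 0.07 in log2 fold change.

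The inducible HSP70 genes were the lowest of the 45 in both genotypes. Hspa1a (chromosome 17: 34969190 to 34972156, minus strand, GRCm38) stood at 1.32, 0.900 and 1.63 CPM in KO and at 1.41, 0.778 and 2.14 CPM in WT, which is 33, 28 and 53 reads against 44, 22 and 77 reads. Hspa1b (chromosome 17: 34956436 to 34959238, minus strand) stood at 1.72, 1.41 and 2.31 CPM in KO and at 2.37, 1.41 and 2.02 CPM in WT. The replicate 2 libraries, which are those with little Xist, were the lowest of their genotype for both genes, and the genotypes overlapped. Their log2 fold changes were −0.07 (95% interval −0.59 to 0.44) and −0.06 (−0.46 to 0.34), on a scale that shrinks changes near 1 CPM. The coding sequences of these genes, each a single exon, are 1923 (Hspa1a) and 1926 bases (Hspa1b) long. Compared base by base from the start, with no gap allowed, they differed at 34 positions (98.2% identity). As the lengths differ, this count may overstate the differences. The authors' counting may have split or dropped reads of such similar genes, and each value is uncertain.

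Of the mitochondrial chaperonin genes 0 of 2 passed, and their log2 fold changes had opposite signs. Hspd1 (HSP60) stood at 143.6, 127.3 and 145.9 CPM in KO and at 163.5, 145.2 and 141.2 CPM in WT (log2 fold change −0.11, 95% interval −0.30 to 0.08; limma adjusted p = 0.866). Its partner Hspe1 (HSP10) stood at 23.96, 20.5 and 26.8 CPM in KO and at 23.6, 22.6 and 22.1 CPM in WT (log2 fold change 0.05, −0.19 to 0.29; limma adjusted p = 0.925). KO replicate 2 was the lowest of all 6 libraries for both genes, and the genotypes overlapped for both. GENCODE M21 names 5 pseudogenes after Hspd1 and 6 after Hspe1, whose reads cannot be told apart with certainty.

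Between libraries, the ER folding genes were lowest where the integrated stress response was highest, in each genotype. Each group's level was taken as the mean over its genes of log2(CPM + 1) minus the gene's mean over the 6 libraries. For ER folding the KO libraries had levels of −0.11, −0.03 and 0.07 (replicates 1 to 3) and the WT libraries 0.14, −0.14 and 0.06. For the integrated stress response it was 0.33, −0.12 and −0.07 in KO, and −0.17, 0.17 and −0.14 in WT. KO replicate 1 and WT replicate 2 were thus low for the first group and high for the second. The likeness of these libraries was not particular to these groups. Across the 12118 genes tested, their deviations from the genotype means correlated at 0.398, the highest of any KO and WT pair. In WT the high level of the integrated stress response rests on Ddit3 and Trib3. The other 4 genes were taken apart after the values were seen. Their levels were 0.16, −0.07 and −0.04 in KO against −0.01, −0.01 and −0.03 in WT. The sensor group followed ER folding, with −0.06, 0.02 and 0.11 in KO against 0.06, −0.15 and 0.03 in WT. The cytosolic group was low in KO replicate 2 (−0.09) and WT replicate 2 (−0.10), the libraries with little Xist. It lay between 0.01 and 0.07 in the other 4 libraries. With the filter of 5 CPM, which leaves out the low genes Hspa1a and Hspa1b, the low levels were smaller, at −0.053 and −0.063. The range over the 6 libraries was 0.281 for ER folding and 0.502 for the integrated stress response, the latter largely from Ddit3 and Trib3. The differences between the genotype means were −0.04 and 0.09. The mean level of the degradation genes had the narrowest range, at 0.102, but single genes differed in order. Each WT library was the lowest of its genotype for 2 of these 6 genes.

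**Figure D3:**
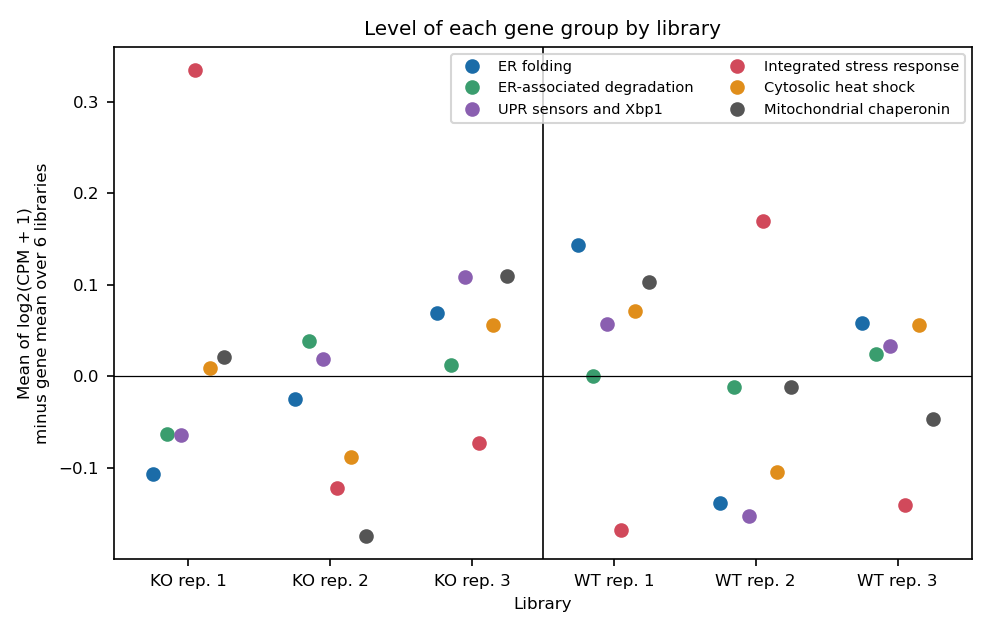
Mean level of each gene group in each library, as log2(CPM + 1) minus the gene mean over the 6 libraries (1 point per group and library). In KO replicate 1 and WT replicate 2 the integrated stress response lies above 0.1 and ER folding below −0.1.

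Gene by gene the pattern was broad among the 15 ER folding genes, but its KO side was not seen in the other ER folding genes counted below. KO replicate 1 was the lowest KO library for 10 of the 15 genes, against 30.1% of all genes tested (KO replicate 3 for 0 of 15, against 31.5%), and WT replicate 2 was the lowest WT library for 14 of 15, against 35.3% of all genes; Dnajb9 was the exception. WT replicate 1 was the highest WT library for 12 of 15 ER folding genes, against 32.9% of all genes. For the sensor group WT replicate 2 was the lowest WT library in 4 of 4. For the cytosolic group KO replicate 2 was the lowest KO library in 8 of 12, against 38.4% of all genes, and WT replicate 2 the lowest WT library in 9 of 12. Both counts include Hspa1a and Hspa1b. KO replicate 2 and WT replicate 2 are also the libraries with little Xist (0.900 and 0.495 CPM), and a part of sex in these orders was not tested. All libraries named in this paragraph were singled out after their values were seen, and no test was made on them. The size of the differences was modest: the highest library was under 1.5 times the lowest for 41 of the 45 genes, which held for 77.5% of all genes. The 4 others were Ddit3, Trib3, Hspa1a and Hspa1b.

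**Figure D4:**
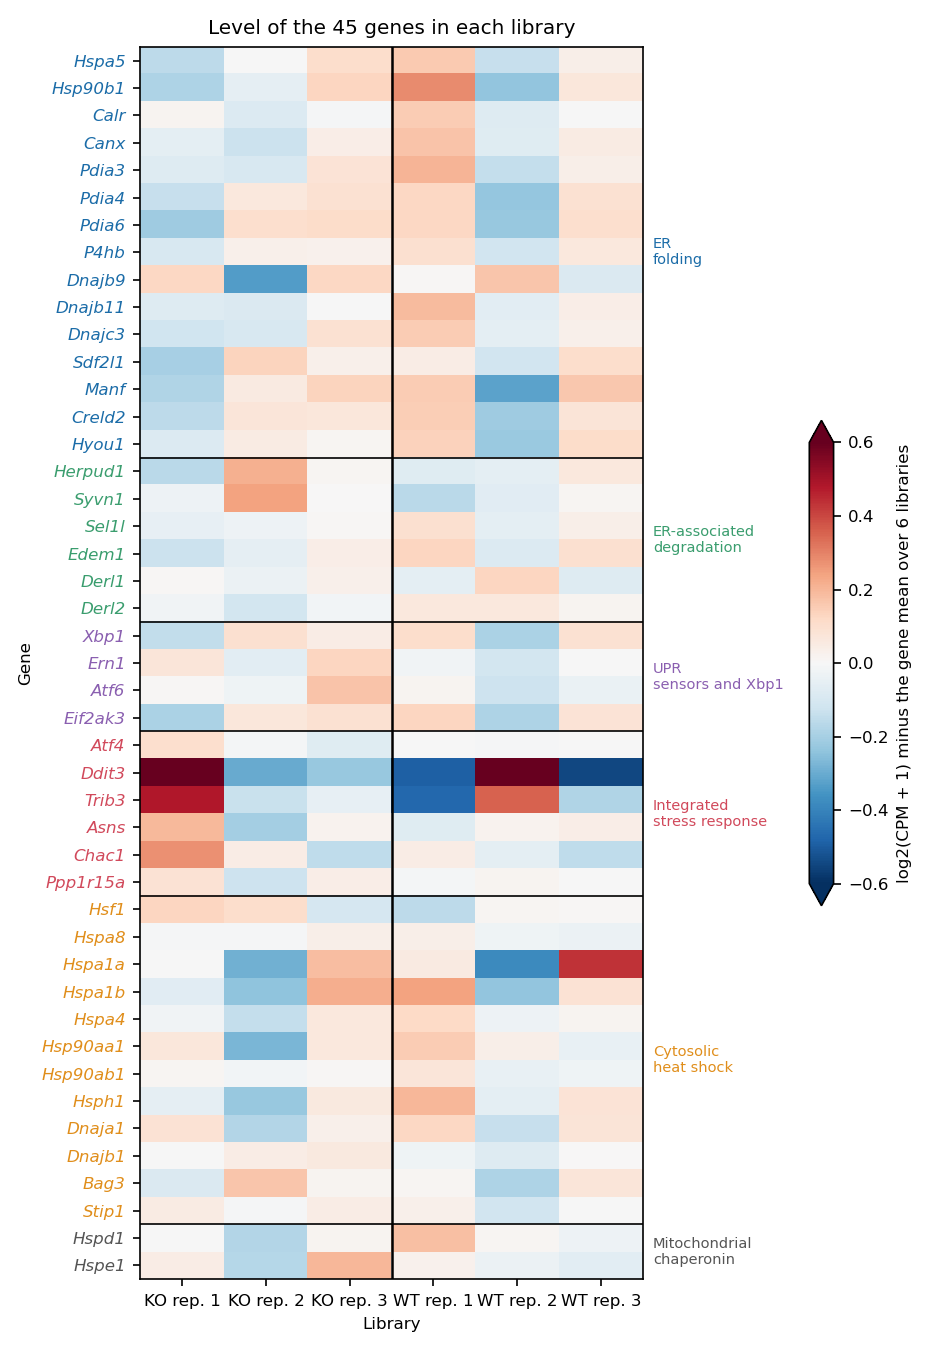
Level of each of the 45 genes (rows, by group) in each library (columns), as log2(CPM + 1) minus the gene mean over the 6 libraries; red is above and blue below the mean, and colours saturate at 0.6. Most ER folding rows are blue in KO replicate 1 and WT replicate 2, where Ddit3 and Trib3 are red.

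Other genes moved with these libraries. Of 24 interferon-stimulated genes, a list added after the library pattern was seen, 23 were highest in KO replicate 1 among the KO libraries and 23 were highest in WT replicate 2 among the WT libraries. Their level was 0.90, −0.76 and 0.15 in KO against −0.66, 0.76 and −0.39 in WT, and Irf7, an interferon response factor, stood at 352.4, 31.3 and 99.9 CPM in KO and 28.9, 239.2 and 47.7 CPM in WT. The summed level of neutrophil markers, 10 of 13 found, was low in the same libraries. It was 9.20, 19.9 and 22.1 CPM in KO and 33.8, 11.1 and 29.1 CPM in WT, with Mmp8 (5.40 to 17.1 CPM) the largest part. The granule genes Elane and Camp had 0 reads in KO replicate 1 and WT replicate 2, and at most 16 reads elsewhere. Not all markers followed: Cebpe was lowest in KO replicate 3 (0.771 CPM) and WT replicate 3 (0.638 CPM), and Prtn3 had 0 reads in KO replicate 3 and WT replicate 2. KO replicate 1 and WT replicate 2 also had the fewest reads in total, 25454862 and 28651459. The part of these genes and of depth in the pattern was not tested. In RNA from whole cultures, fewer cells of a type and less RNA per cell cannot be told apart. Of other cell types, the summed markers were 54.95 to 91.5 CPM (KO) and 57.7 to 84.7 CPM (WT) for 4 of 9 B and plasma cell genes, mostly Ighm and Sdc1, 0.675 to 1.04 and 0.601 to 1.02 CPM for 4 of 8 dendritic cell genes, and 1.67 to 2.25 and 1.66 to 1.94 CPM for 4 of 8 stromal genes. Of the erythroid and the T and NK cell markers 0 of 7 and 0 of 8 were matched by symbol, so these cell types were not analysed here.

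The wider pathways were read from 8 lists of other genes, 229 in all, of which 208 were tested. Over all of them 0 passed in either direction, 105 were positive and 103 negative, with a median log2 fold change of 0.00. At an unadjusted limma p under 0.05 there were 3 higher and 4 lower, a share near that of all genes. In the list of other cytosolic heat shock genes, 0 of 43 passed. Ppid, a cyclophilin that binds HSP90, had a mean of 32.01 ± 2.48 CPM in KO against 39.4 ± 3.03 CPM in WT (SD), a log2 fold change of −0.29 (limma adjusted p = 0.866). The HSP70 gene Hspa1l had means of 1.27 ± 0.244 and 0.739 ± 0.249 CPM (0.39; limma adjusted p = 0.866). Of other ER folding genes 0 of 26 passed, with Tmx3, a membrane isomerase, at −0.26 and Sil1, the exchange factor of BiP, at 0.17. KO replicate 1 was the lowest KO library for 8 of these 26 genes, against 30.1% of all genes. WT replicate 2 was the lowest WT library for 15 of 26, against 35.3%. Of other degradation genes 0 of 24 passed, with Sel1l3 at 0.72 and the lectin Os9 at 0.13. Here KO replicate 1 was the lowest KO library for 4 of 24 and WT replicate 2 the lowest WT library for 7 of 24. Of genes of ER entry and signal processing 0 of 26 passed, with the signal peptidase subunit Spcs3 at −0.12 and Ssr2 at 0.09. For these, KO replicate 1 was lowest in KO for 11 of 26 and WT replicate 2 lowest in WT for 14 of 26. Of other regulators of the response 0 of 16 passed, with the kinase Map3k5 at −0.17 and Creb3l1 at 0.09. Of the cytosolic chaperonin and prefoldin genes 0 of 14 passed, 11 were negative, and Cct6a and Vbp1 had values of −0.17 and −0.23. Of mitochondrial quality control genes 0 of 22 passed, with the protease Yme1l1 at −0.19 and Atf5 at 0.30.

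The other genes of the integrated stress response were counted by library in the same way. Of 38 tested, 0 passed in either direction, 20 were positive and 18 negative, with a median of 0.00. Eif4ebp1, a translation repressor, had a log2 fold change of 0.22 and Atf3 one of 0.23 (limma adjusted p = 0.866 for each). KO replicate 1 was the highest KO library for 29 of the 38 genes, against 32.2% of all genes, and WT replicate 2 the highest WT library for 18 of 38, against 38.9% of all genes. Atf5, a transcription factor downstream of ATF4 that is in this list and in the mitochondrial list, stood at 44.3, 35.4 and 29.9 CPM in KO and at 23.3, 43.4 and 24.5 CPM in WT, with the same high libraries as Ddit3.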

How the data were processed

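The deposited table holds per-library values that the file headers call CPM and that are log2 CPM by their range, with the authors' log2 fold change and unadjusted p-value. The tools named, per the submitters' processing notes, are Cufflinks, FastQC (0.11.15), HTSeq (0.11.0), HISAT2 (2.1.0) and Trimmomatic (0.36), with no build, annotation or strand setting given in the sources used here. Many values had lost their decimal mark. Once unlogged and less the level shared by genes with 0 reads, every value proved to be a multiple of the CPM of 1 read, which restored the mark and returned whole reads (within 1e-06) for 100% of genes. CPM use the authors' scaled library sizes, 0.982 to 1.02 times the reads in the table. limma-voom on these reads over all genes matched 16830 readable p-values of the authors' deposited table to a relative gap of 2.53e-13.

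Genes with at least 1 CPM in 3 libraries were fitted with limma 3.58.1 (trended eBayes) in R 4.3.3 on log2(CPM + 1), with genotype as the only term, two-sided, Benjamini-Hochberg adjusted over all tested genes at 0.05. The steps were tested on simulated reads. The members and lists were chosen with earlier results of these data known. Genes given by library are 15 set by name and the 2 of smallest p in each group; Manf, Pdia6, Dnajb9, Asns and, outside the 45, Irf7 were added after their values were seen. Of each wider list, the 2 of smallest p are named. Positions and exon lengths are from GENCODE M21 (GRCm38), and promoters from RefSeq (GRCm38.p6). A planned comparison of protein ends was not made, as protein sequences were not used here.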

Additional observations from a re-analysis of the deposited data

How the results depend on the processing

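The count of 0 of 45 genes past the threshold held in all 17 alternative fits: a pseudocount of 0.25, the deposited log2 CPM values, no filter, a filter of 5 CPM (43 of 45 genes tested), limma-voom, 2 other scalings, robust eBayes, the replicate block, each library left out, both replicate 2 libraries left out and, chosen after seeing the data, KO replicate 1 and WT replicate 2 left out. Over all genes the count called was 2, and 1 with no filter, with the 5 CPM filter and with limma-voom, 1 to 8 with 1 library left out (8 without WT replicate 2), 23 without both replicate 2 libraries and 12 without KO replicate 1 and WT replicate 2; the cause was not tested. Without both replicate 2 libraries the group medians were −0.132 (ER folding), −0.0656 (degradation), −0.0243 (sensors), 0.120 (integrated stress response), −0.0288 (cytosolic) and 0.0367 (mitochondrial), so the sensor and mitochondrial medians changed sign. Without KO replicate 1 and WT replicate 2 the median of the integrated stress response was −0.0181. With 1 library left out the group medians ran from −0.12 to 0.02 (ER folding), −0.05 to −0.02 (degradation), −0.02 to 0.07 (sensors), −0.04 to 0.13 (integrated stress response), −0.06 to 0.03 (cytosolic) and −0.09 to 0.05 (mitochondrial), so only the degradation group kept its sign. Of the 45 log2 fold changes, 3 changed sign with total reads as the scaling (Derl1, Manf and Pdia6), 8 without both replicate 2 libraries and 7 without KO replicate 1 and WT replicate 2. Among the 24 genes named by rule these were Herpud1 (−0.0725) and Hsp90aa1 (0.0136) without both replicate 2 libraries, and Atf4 (−0.0371) and Chac1 (−0.0021) without KO replicate 1 and WT replicate 2. With 1 library left out, 5 to 14 of the 45 changed sign, among the 24 in the ranges −0.116 to 0.0324 (Hspa5), −0.211 to 0.0489 (Hsp90b1), −0.0546 to 0.133 (Herpud1), −0.0991 to 0.0696 (Xbp1), −0.116 to 0.0699 (Eif2ak3), −0.0354 to 0.0499 (Atf4), −0.15 to 0.63 (Ddit3), −0.28 to 0.13 (Hspa1a), −0.194 to 0.0466 (Hspa1b), −0.151 to 0.0198 (Hsp90aa1) and −0.0377 to 0.148 (Hspe1).

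Replicate numbers are not stated to pair the libraries. Deviations of same-numbered libraries from their genotype means correlated across genes at −0.216, −0.134 and 0.140 for numbers 1 to 3, so no pairing was used, and no library correlated best with its own number. The highest correlation was that of KO replicate 1 with WT replicate 2, at 0.398. With the replicate block 0 of 45 genes and 2 of all genes passed, with a smallest adjusted p of 0.927 among the 45. Depth limits Hspa1a and Hspa1b, at 22 to 77 reads per library.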
